A study of Mus musculus with 16 samples.

Results

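Killer lectin-like receptors are C-type lectin-like membrane proteins best known from natural killer (NK) cells and cytotoxic T cells. The account follows 5 of their genes, Klrg1, Klrk1, Klrd1, Klrc1 and Klrb1c, chosen by symbol from the 19540 genes of a deposited RNA-seq table, in which 27 genes of the Klr family had a row. The 5 were chosen with earlier results of these data known. The table covers 2 populations sorted from mouse visceral adipose tissue (VAT): regulatory T cells (Treg), CD4 cells that express Foxp3 and hold immune responses in check, and conventional T cells (Tconv). The study asked what happens to these cells when Treg lack Hpgd, the enzyme that inactivates prostaglandin E2. Treg were profiled in 3 WT and 4 KO libraries and Tconv in 4 WT and 5 KO libraries.

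KO stands for a Treg-specific deletion of Hpgd, made with a floxed Hpgd allele (Hpgd fl) and Foxp3-YFP-Cre, in which the Foxp3 promoter drives Cre. The Tconv of KO mice are therefore cells beside deleted Treg, not a deleted population themselves. The strain was C57BL/6JRcc, the age 12 weeks, and no treatment is labelled. The line label was identical for all 16 libraries, so WT and KO rest on the sample titles, and the alleles carried by the WT animals cannot be read from the labels. The series names 5 deleted and 4 WT animals, and no label ties a library to an animal, so the p-values measure only the spread between these libraries. Which markers defined the sort gates is not given in the sources used here.

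Some of these receptors carry inhibitory motifs in their cytoplasmic tails, and others signal through adaptor proteins that couple them to kinases. Klrg1 is an inhibitory receptor for cadherins and marks terminally differentiated effector lymphocytes and a tissue Treg population. Klrk1 encodes NKG2D, an activating receptor for stress-induced ligands related to MHC class I. Klrd1 encodes CD94, which pairs with the Klrc1 product NKG2A to form an inhibitory receptor for the nonclassical MHC molecule Qa-1. Klrb1c encodes NKR-P1C, the NK1.1 antigen by which NK cells of C57BL/6 mice are commonly recognised.

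All 5 genes lie on chromosome 6 (GENCODE M21, on GRCm38, the build mm10). Klrb1c (128778485 to 128789215, minus strand), Klrd1 (129591782 to 129598775, plus strand), Klrk1 (129610323 to 129623864, minus strand) and Klrc1 (129666015 to 129678973, minus strand) sit inside the NK gene complex. This cluster ran from Klrb1a to Klra2, from 128609227 to 131247362, and held 28 annotated Klr genes in 2.64 Mb. Klrg1 (122270596 to 122282882, minus strand) ended 6.33 Mb before the start of the cluster. Exons of Klrb1c, and of its neighbour Klrb1b, overlap the annotated readthrough gene Gm44511, and the Klrc, Klrb1 and Klra genes have near-identical copies. How reads shared with such copies were counted is not given in the sources used here, so levels of single members of these families are uncertain.

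Promoter windows, 250 bases before to 50 after a gene's RefSeq start, were found for 3 of the 5 genes in a RefSeq table on GRCm38.p6. They are shown because Klrk1, Klrc1 and Klrb1c lie in 1 gene cluster and had nearly all of their reads in Tconv. Capitals mark matches to short motifs searched for on both strands. All 3 windows are on the minus strand of chromosome 6. The Klrb1c window ends at 128788891 and so lies inside the GENCODE gene, which on this strand begins at 128789215. Its motif positions count from the RefSeq start and are not upstream of the GENCODE gene.
Klrk1, chr6:129623815-129624114: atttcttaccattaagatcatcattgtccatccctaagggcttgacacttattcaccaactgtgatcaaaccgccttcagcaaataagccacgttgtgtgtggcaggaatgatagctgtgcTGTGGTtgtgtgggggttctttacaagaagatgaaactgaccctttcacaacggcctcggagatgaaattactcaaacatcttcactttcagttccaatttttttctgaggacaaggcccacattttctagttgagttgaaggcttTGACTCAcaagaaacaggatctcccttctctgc
Klrc1, chr6:129678924-129679223: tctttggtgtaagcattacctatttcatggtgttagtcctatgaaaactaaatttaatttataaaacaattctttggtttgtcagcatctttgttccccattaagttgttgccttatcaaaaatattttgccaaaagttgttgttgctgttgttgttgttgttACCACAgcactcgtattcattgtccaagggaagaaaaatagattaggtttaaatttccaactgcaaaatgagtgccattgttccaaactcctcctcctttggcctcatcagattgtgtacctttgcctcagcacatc
Klrb1c, chr6:128788592-128788891: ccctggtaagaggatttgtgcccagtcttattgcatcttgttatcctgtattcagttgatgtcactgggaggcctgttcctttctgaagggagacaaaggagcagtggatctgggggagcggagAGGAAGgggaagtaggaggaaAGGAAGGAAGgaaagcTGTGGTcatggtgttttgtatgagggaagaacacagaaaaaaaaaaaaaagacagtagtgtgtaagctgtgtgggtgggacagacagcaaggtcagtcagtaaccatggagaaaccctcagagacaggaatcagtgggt
Each of the 3 windows held the Runx motif TGTGGT once, 129 bases upstream of the start in Klrk1, 89 bases upstream in Klrb1c and 87 bases upstream, on the reverse strand, in Klrc1. Among all 32851 windows of the same length, 16.8% held this motif. The Klrb1c window held the Ets motif AGGAAG 3 times, 126 and 105 bases upstream and once more overlapping the second match, and 35.4% of all windows held these letters. The Klrk1 window held the AP-1 motif TGANTCA 17 bases downstream of the start, as did 7.81% of all windows. The T-box motif GGTGTGA, found in 3.98% of all windows, was in none of the 3. The GATA motif AGATAA, found in 11.2% of all windows, was in none of them either. These are matches of letters, not binding sites.

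Levels below are the deposited normalised values, gene read counts divided by a library's size factor with 1 added, so that a gene without reads is listed at 1. Libraries held 3.39 to 9.26 M reads, except Tconv KO 3 with 56.7 M, and the value of 3 reads, taken as the floor, ran from 1.38 to 7.09. Foxp3, the lineage factor of Treg, ran from 279 to 616 in the 7 Treg libraries and from 1 to 39.3 in the 9 Tconv libraries. The 7 fixed Treg markers summed to 26689.7 to 30927 in Treg and 5169.6 to 6994 in Tconv, and Cd4 was at 3859 to 7949 in all 16 libraries. Hpgd stood at 73.1, 56.0 and 4.31 in the Treg WT libraries against 1 to 3.41 in the Treg KO libraries, so that Treg WT 3 lay at its floor, close to the KO level. Hpgd had no reads in the Tconv libraries other than Tconv KO 3, at 6.20.

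Klrg1 was the receptor with reads in every Treg library. Its mean, without the added 1, was 22.9-fold higher in Treg than in Tconv of WT mice and 33.5-fold higher in KO mice, and it was the only 1 of the 5 genes with more than a few reads in most Treg libraries. Klrk1, Klrd1 and Klrc1 were lower in Treg than in Tconv in both genotypes, and Klrd1 and Klrc1 had no read in any of the 7 Treg libraries. Klrb1c followed the same direction without passing the test. By limma with Benjamini-Hochberg adjustment over 14319 genes, 4 of the 5 differed between the cell types in WT mice, where 4.18% of all genes did (2.20% higher and 1.98% lower in Treg). The same 4 differed in KO mice, where 6.81% of all genes did (4.16% higher and 2.65% lower). Genes were tested if they reached 10 in 3 or more libraries. Klrk1, Klrd1, Klrc1 and Klrb1c did so through Tconv, so their direction and these counts are partly set by that filter. No gene of the 5 passed between KO and WT. In Treg, Klrd1, Klrc1 and Klrb1c had too few reads for that comparison.

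**Figure D1:**
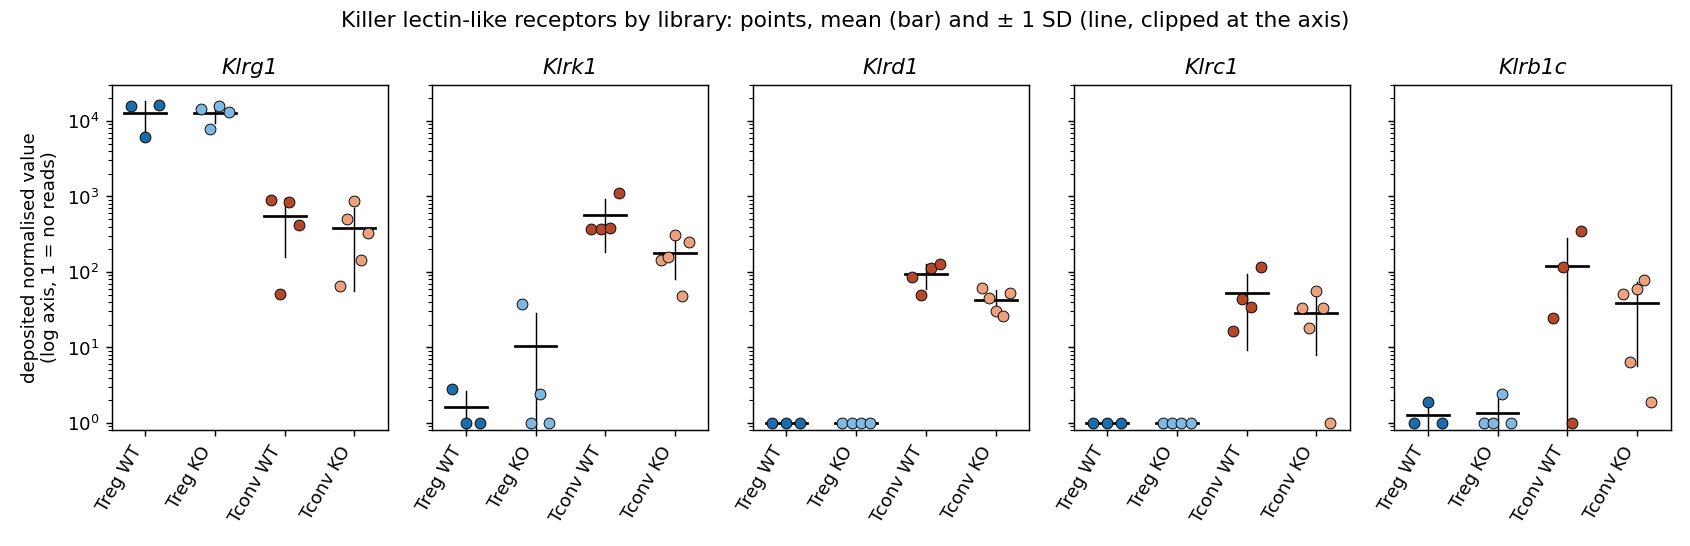
Deposited normalised value of each receptor in each library (points), on a log axis where 1 means no reads; horizontal bars are group means and vertical lines ± 1 SD, clipped at the lower axis limit, over 3, 4, 4 and 5 libraries. Klrg1 is highest in the Treg libraries, between 6045 and 16024, while the other 4 genes are at or near 1 in nearly all Treg libraries and have their reads in Tconv.

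Klrg1 was at 15609.6, 6045 and 16024 in Treg WT libraries 1 to 3. In the Treg KO libraries it was at 14302.5, 7921, 15876 and 13074. The Tconv WT libraries gave 885, 51.7, 836 and 424, and the Tconv KO libraries 65.5, 499.7, 882, 142 and 324. Every Treg library was above every Tconv library, and the lowest Treg library of each genotype was its replicate 2. Within Tconv the spread was wide: the highest and lowest WT libraries differed far more than the 2 group means did.

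The group means of Klrg1 were 12560 ± 5645 (SD, n = 3) in Treg WT, 12793 ± 3445 (n = 4) in Treg KO, 549 ± 391 (n = 4) in Tconv WT and 383 ± 326 (n = 5) in Tconv KO. On the log2 scale used for testing (log2 of the deposited value plus 1), Treg WT exceeded Tconv WT by 5.00 (SE 0.82, 95% interval 3.28 to 6.71, limma adjusted p = 0.00117). Treg KO exceeded Tconv KO by 5.53 (SE 0.72, interval 4.03 to 7.04, adjusted p = 4.97e-05). The order of the groups was Treg KO, Treg WT, Tconv WT, Tconv KO, and neither pair of the same cell type differed beyond its spread. The KO minus WT difference of Klrg1 in Treg was 0.11 (interval -1.60 to 1.82, adjusted p = 0.994), and its sign turned under 3 of 25 alternatives. The interval leaves room for a difference of over 3-fold either way. In Tconv the KO minus WT difference was -0.43 (interval -1.93 to 1.08, adjusted p = 0.987). The 2 differences themselves differed by 0.53 (interval -1.75 to 2.82, adjusted p = 0.985).

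Among 13250 tested genes, those whose centred log2 values over the 16 libraries lay closest to Klrg1 were Lat2 (root mean square distance 0.94), Il1rl1 (0.99) and Ltb4r1 (1.06). Lat2 encodes a membrane adaptor of lymphocyte signalling, Il1rl1 the IL-33 receptor ST2 and Ltb4r1 a leukotriene B4 receptor. Il1rl1 was at 12534, 1725 and 14889 in Treg WT and at 10742 to 12704 in Treg KO. In Tconv WT it was at 1566, 25.4, 1746 and 201, and in Tconv KO at 72.8, 116, 2548, 190.1 and 116. The 3 Tconv libraries with the highest Klrg1 (replicates 1 and 3 of WT and replicate 3 of KO) were also the 3 with the highest Il1rl1 and, at 1358 to 2308 against at most 294 elsewhere in Tconv, the highest Ltb4r1. Likewise, the Treg library with the lowest Klrg1, Treg WT 2, had the lowest Il1rl1 and, at 1903, the lowest Ltb4r1. Both genes were picked for their likeness to Klrg1 over these same libraries, so shared high and low libraries add no support. Foxp3 in these 3 Tconv libraries was at 20.6, 1 and 1.89. Without them the KO minus WT difference of Klrg1 in Tconv was 0.41 instead of -0.43. The differences of Klrg1 between Treg and Tconv passed again, but leaving out its highest Tconv libraries can only widen them, so this is no test of them. Type 2 innate lymphoid cells also carry Klrg1 and Il1rl1: 6 of 7 of their fixed markers had a row, and their summed value ran from 3927 to 30184 in Treg WT, 19912 to 24388 in Treg KO, 2302 to 11295 in Tconv WT and 3810.3 to 11470 in Tconv KO. All 6, Il1rl1 itself among them, had reads in both Treg and both Tconv groups, and the part of such cells in these values was not tested. In bulk RNA, fewer cells of a type and less RNA per cell cannot be told apart, here and in the results that follow.

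**Figure D2:**
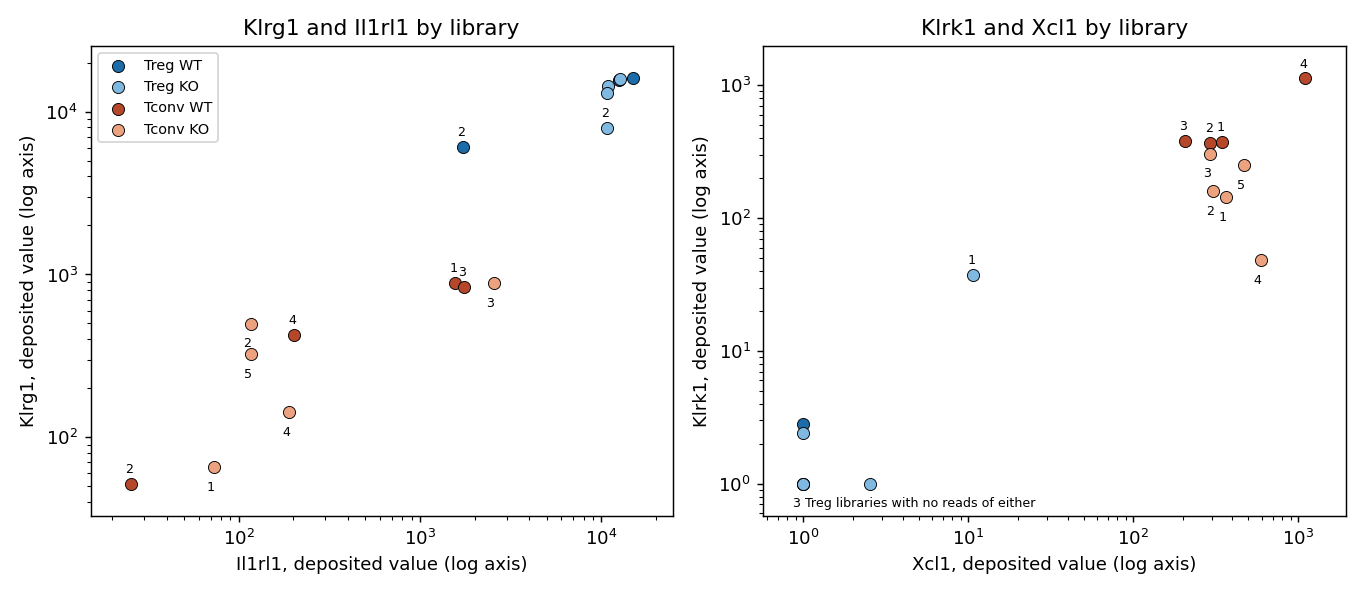
Left, Klrg1 against Il1rl1; right, Klrk1 against Xcl1; each point is 1 library, coloured by group, with deposited values on log axes and the replicate numbers printed beside all Tconv and a few Treg points. Replicates 1 and 3 of Tconv WT and replicate 3 of Tconv KO lie together at high Il1rl1 and Klrg1, and Tconv WT 4 stands above the other libraries for both Klrk1 and Xcl1.

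Klrk1, the NKG2D gene, was the most abundant of the other 4 receptors in Tconv. Its values were 372, 368, 381 and 1124.5 in Tconv WT libraries 1 to 4. The Tconv KO libraries gave 143, 158, 304.5, 48.1 and 249.8. In Treg it was at 2.83, 1 and 1 in WT and at 37.2, 1, 2.42 and 1 in KO. Treg lay below Tconv without overlap in both genotypes, and 1 Treg library, Treg KO 1 with 30 reads, stood apart from the other 6, which had 0 to 2 reads.

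Means of Klrk1 were 562 ± 375 (SD, n = 4) in Tconv WT, 181 ± 99.5 (n = 5) in Tconv KO, 1.61 ± 1.05 (n = 3) in Treg WT and 10.4 ± 17.9 (n = 4) in Treg KO. After removal of the added 1, Klrk1 was 883-fold lower in Treg than in Tconv of WT mice, with a 95% counting interval from 244 to 7288. Because only 2 reads were seen in Treg WT, the Treg level was taken from reads pooled over its libraries. In KO mice Klrk1 was 19.1-fold lower, as a ratio of the means. The log2 differences were -7.64 (SE 0.94, interval -9.59 to -5.68, limma adjusted p = 5.35e-05) and -5.01 (SE 0.82, interval -6.73 to -3.29, adjusted p = 0.000534). Without Treg KO 1, the Treg KO mean was 1.47 ± 0.818 (n = 3), and 1 read was left, for a ratio from pooled reads of 429 (95% counting interval 76.96 to 16937). Without Tconv WT 4 the WT ratio was 587 (163 to 4849).

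The Tconv of the 2 genotypes did not overlap for Klrk1: all 4 WT libraries were at 368 or above and all 5 KO libraries at 305 or below. Over all genes, 1.67% showed no overlap in this comparison. The KO minus WT difference was -1.68 (SE 0.82, interval -3.40 to 0.04), with an unadjusted limma p of 0.0550 and an adjusted p of 0.900, and it is therefore not a call. Without Tconv WT 4 the WT mean was 374 ± 6.71 (n = 3) and the difference -1.28 (adjusted p = 0.979). In Treg, the KO minus WT difference was 0.94 (interval -1.01 to 2.90, adjusted p = 0.916), and without Treg KO 1 it was -0.05. The difference between the effects in Treg and Tconv was 2.63 (interval 0.02 to 5.23, limma unadjusted p = 0.0485, adjusted p = 0.928), and without Treg KO 1 it was 1.63 (adjusted p = 0.979).

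Cd160 (distance 1.16), Xcl1 (1.17) and Klrd1 (1.29) lay closest to Klrk1 over the 16 libraries. Cd160 is a receptor of NK and cytotoxic T cells, and Xcl1 a chemokine made by them. Xcl1 had no reads in Treg WT, ran from 1 to 10.6 in Treg KO, and reached 343, 293, 205 and 1106 in Tconv WT and 294 to 597 in Tconv KO. The library highest in Klrk1, Tconv WT 4, was also highest in Xcl1, while the lowest Tconv library in Klrk1, Tconv KO 4, was the second highest in Xcl1. In Treg KO 1 Xcl1 was at its highest among Treg, and Cd160 was at 43.2 there and had no reads in the other 6 Treg libraries. Both genes were picked for their likeness to Klrk1 over these same libraries, so a shared outlying library adds no support.

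Klrd1 and Klrc1, the 2 chains of the CD94/NKG2A receptor, had no read in Treg. Klrd1 stood at 84.8, 49.7, 114 and 126 in the WT Tconv libraries and at 61.8, 45.4, 30.5, 25.7 and 52.5 in Tconv KO. The 2 Tconv genotypes overlapped. Klrc1 stood at 16.5, 43.6, 34.2 and 115 in the WT Tconv libraries and at 33.8, 18.1, 55.2, 32.9 and 1 in Tconv KO. Tconv KO 5 had no Klrc1 read although it had 58 reads of Klrd1, so it overlapped with Treg for Klrc1 but not for Klrd1.

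The mean of Klrd1 was 93.5 ± 33.9 (SD, n = 4) in Tconv WT and 43.2 ± 15.03 (n = 5) in Tconv KO, and that of Klrc1 was 52.3 ± 43.1 and 28.2 ± 20.2. Against a floor of 3 reads per library, Klrd1 was at least 32.0-fold lower in Treg WT than in Tconv WT and at least 10.97-fold lower in KO. For Klrc1 the bounds were at least 17.8-fold and at least 7.08-fold lower, and without Tconv WT 4 the first was at least 10.54-fold. Fitted differences depend on the pseudocount for genes without reads, and so serve here for the test only. For Klrd1 they were -5.48 (SE 0.69, limma adjusted p = 7.62e-05) in WT and -4.39 (SE 0.61, adjusted p = 0.000101) in KO. For Klrc1 they were -4.40 (SE 0.98, adjusted p = 0.0124) and -3.26 (SE 0.86, adjusted p = 0.0242). The Klrc1 calls were the least firm: voom on recovered reads did not call either, and in KO mice the call was lost when any 1 of the 4 Treg KO libraries, or Tconv KO 1, 3 or 4, was left out (adjusted p from 0.00154 to 0.0745 over all alternatives). A pseudocount of 10 lost it as well (limma adjusted p = 0.0543). Treg libraries, all at 1 for both genes, add no spread to the fit, so these p-values may be too small. With only the compared groups in the fit, the WT adjusted p was 0.0180 for Klrd1 and 0.0533 for Klrc1.

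Between genotypes in Tconv, Klrd1 differed by -1.09 (interval -2.36 to 0.19, limma adjusted p = 0.931) and Klrc1 by -1.14 (interval -2.95 to 0.66, adjusted p = 0.957). With no reads in either Treg group, no difference between Treg KO and Treg WT can be given. The genes closest to Klrd1 were Mboat1 (distance 0.81), Ly6c2 (0.85) and Sema4a (0.89), which encode a lysophospholipid acyltransferase, a Ly6C surface protein and a semaphorin. All 3 had reads in every Tconv library: Mboat1 at 163 to 291, Ly6c2 at 983 to 3925 and Sema4a at 1001 to 2022, against at most 9.50, 95.9 and 193 in Treg. The genes closest to Klrc1 were Dapl1 (1.07), Jaml (1.12) and Il15 (1.13), which were at 1 to 66.1, 11.7 to 287 and 12.2 to 46.2 in Tconv and at most 1.97, 8.68 and 6.84 in Treg.

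Klrb1c, the NK1.1 gene, was the most uneven of the 5. It was at 24.8, 115, 1 and 347 in the WT Tconv libraries and at 50.9, 6.45, 59.0, 78.4 and 1.89 in Tconv KO. In Treg it was at 1, 1.87 and 1 in WT and at 1, 1, 2.42 and 1 in KO, which is 1 read in each genotype. Tconv WT 3 had no read and Tconv KO 5 had 1 read, so Treg and Tconv overlapped in both genotypes.

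The Klrb1c means were 122 ± 158 (SD, n = 4) in Tconv WT, 39.3 ± 33.7 (n = 5) in Tconv KO, 1.29 ± 0.504 (n = 3) in Treg WT and 1.35 ± 0.708 (n = 4) in Treg KO. The ratio of Tconv to Treg was 380 in WT (95% counting interval 68.2 to 15019) and 123 in KO (22.1 to 4866). For both ratios the added 1 was removed and the Treg reads were pooled over libraries. Neither difference passed: -4.07 (SE 1.39, interval -6.97 to -1.18, limma adjusted p = 0.115) in WT and -3.28 (SE 1.22, interval -5.82 to -0.73, adjusted p = 0.130) in KO. Without Tconv WT 3 the WT difference was -5.49 (adjusted p = 0.0130), but this library had no Klrb1c read, so leaving it out can only widen the difference. Without Tconv WT 4 the WT difference was -3.01 (limma adjusted p = 0.282), and without Tconv WT 2 it was -3.54 (adjusted p = 0.243). Without Tconv WT 4 the Tconv WT mean was 46.8 ± 59.9 (n = 3) and the ratio 144 (25.9 to 5698). Between genotypes in Tconv the difference was -0.78 (interval -3.32 to 1.77, adjusted p = 0.982), and 0.29 without Tconv WT 4.

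Closest to Klrb1c over the 16 libraries were Klra9 (distance 1.08), Klrc1 (1.29) and Pilrb1 (1.49). Klra9, a Ly49 receptor gene of the same cluster, was at 114, 80.2, 1 and 466 in the WT Tconv libraries and at 37.5, 68.8, 43.8, 33.7 and 1 in Tconv KO. The libraries without reads of Klra9 in Tconv, WT 3 and KO 5, were the 2 lowest in Klrb1c, and Tconv WT 4 was highest in both. Klra9 was picked for its likeness to Klrb1c over these same libraries, so the shared low and high libraries add no support. Klrk1, Klrd1 and Klrc1 had their highest value in Tconv WT 4 too. Without that library the Tconv WT means were 82.7 ± 32.1 (n = 3) for Klrd1, 31.4 ± 13.8 for Klrc1 and 65.0 ± 57.9 for Klra9.

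**Figure D3:**
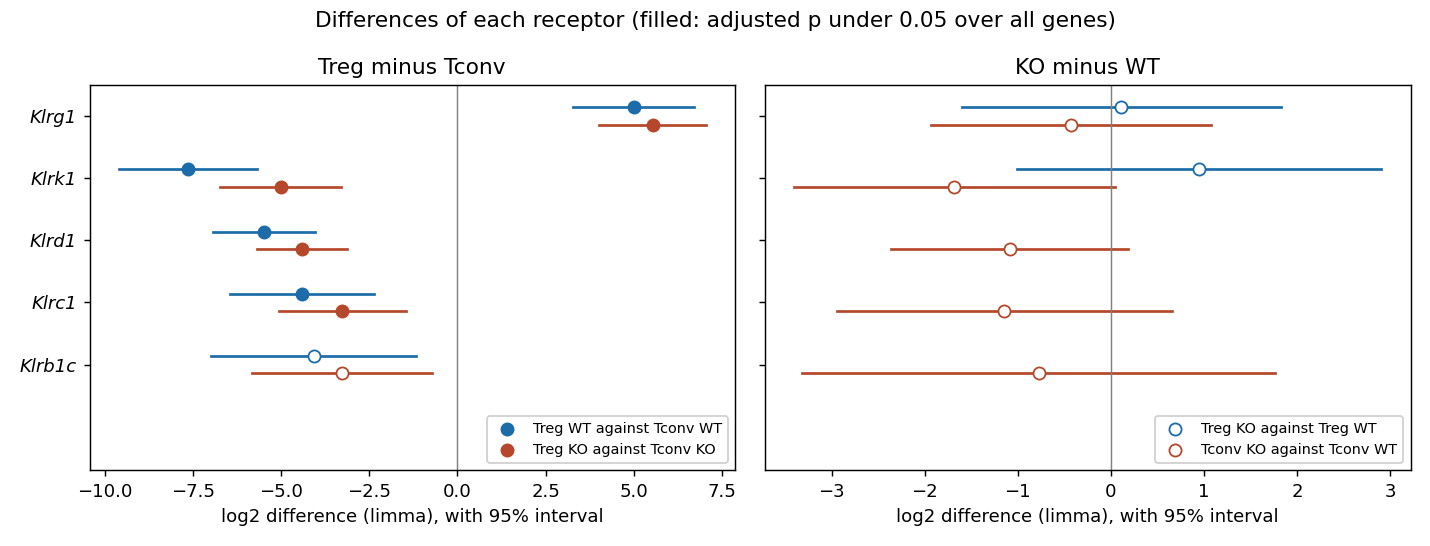
log2 differences of the 5 receptors from limma with 95% intervals, Treg minus Tconv on the left and KO minus WT on the right; filled points passed at an adjusted p under 0.05 over all genes, open points did not. Klrg1 alone lies to the right of 0 between cell types, and on the right no point is filled; Klrd1, Klrc1 and Klrb1c, with at most 1 read per Treg group, are not drawn for Treg KO against Treg WT.

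The median log2 difference of the 5 genes was -4.40 in WT mice (-4.15 with Klrd1 and Klrc1 set to their bounds), beside -0.0037 over all 14319 genes. In KO mice it was -3.28, with or without the bounds, beside 0.04. Klrk1, Klrd1, Klrc1 and Klrb1c passed the filter of 10 or more in at least 3 libraries through Tconv: 9, 9, 8 and 6 Tconv libraries reached that level, against 1, 0, 0 and 0 Treg libraries. A count of differing genes among them is thus partly set by the filter. Treg and Tconv did not overlap for 4 of the 5 genes in WT mice, as for 12.0% of all genes, and for 3 of the 5 in KO mice, as for 10.7% of all genes.

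For the deletion itself, limma called 0 of the 5 genes in Treg, where 0.0210% of all genes were called and 6.01% did not overlap, and 0 of the 5 in Tconv, where 0% were called. In Treg, Klrd1 and Klrc1 had no reads and Klrb1c had 1 read per group. The count of 0 in Treg can therefore speak only for Klrg1 and Klrk1. For the difference between the 2 effects limma called 0 of the 5, again beside 0% of all genes. For Klrd1, Klrc1 and Klrb1c this difference rests on Tconv almost alone. At an unadjusted p under 0.05 the counts were 0, 0 and 1 (Klrk1), beside 6.22%, 5.45% and 5.22% of all genes. voom called 0 in each, with 0, 2 and 0 at an unadjusted p under 0.05, beside 4.53%, 9.16% and 5.91% of all genes. With 5 genes, counts of 1 or 2 cannot be read against these shares. The median KO minus WT difference of the 5 genes in Tconv was -1.09, beside 0.02 over all genes, and all 5 were below 0. Without Tconv WT 4 the median was -0.66 and 4 of the 5 were below 0, with Klrb1c at 0.29. With the 3 Tconv libraries high in Il1rl1 left out it was -2.30, again with 4 of the 5 below 0 and Klrg1 at 0.41. It was -0.50 without Tconv KO 5.

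Per kilobase of the longest coding transcript, with the added 1 removed, the levels can be set beside each other. In Tconv WT they were 388 ± 276 for Klrg1, 175 ± 117 for Klrk1, 100.7 ± 36.9 for Klrd1, 46.0 ± 60.1 for Klrb1c and 25.8 ± 21.7 for Klrc1 (SD, n = 4). Tconv KO had the same order, with 270.0 ± 231, 56.2 ± 31.1, 45.9 ± 16.4, 14.6 ± 12.8 and 13.7 ± 10.2 (n = 5). Neighbours in this order overlapped in both genotypes. In Treg, Klrg1 stood at 8882 ± 3992 (WT, n = 3) and 9047 ± 2436 (KO, n = 4) per kilobase. In Tconv too, where Klrk1, Klrd1 and Klrc1 had their reads, Klrg1 had the highest mean of the 5 per kilobase. In Tconv WT its place above Klrk1 depends on the lengths used: the deposited means were 549 for Klrg1 and 562 for Klrk1. The lowest Tconv WT library was at 35.9 per kilobase for Klrg1 and at 115 for Klrk1.

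Of the other 22 Klr genes with a row, 7 passed the filter, and only Klrb1f passed between Treg and Tconv. Over all genes 4.18% passed in WT mice and 6.81% in KO mice, and 1 call among 7 genes is not read against these shares. Klrb1f encodes NKR-P1F, a receptor for a C-type lectin-related ligand. Its values were 109, 90.3, 283 and 151 in Tconv WT, 142, 91.4, 126, 190.1 and 83.6 in Tconv KO, 1 in all 3 Treg WT libraries, and 5.82, 17.9, 1 and 1 in Treg KO. Each Tconv library was above each Treg library, and unlike Klrb1c it had reads in all 9 Tconv libraries. The limma differences were -6.17 (SE 0.82, adjusted p = 0.00012) in WT and -4.68 (SE 0.72, adjusted p = 0.000278) in KO. No other Klr gene reached 10 in 3 or more Treg libraries, and 5 did so in 3 or more Tconv libraries. At 100 or more in any library were 5 of them: Klrb1f, Klra9, Klra1, Klre1 and Klri2. The last 4 had their highest value in Tconv WT 4, with Klra1 at 461, Klre1 at 177 and Klri2 at 100.1 there. Klrc2, the activating relative of Klrc1, was also highest in that library, at 97.8.

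**Figure D4:**
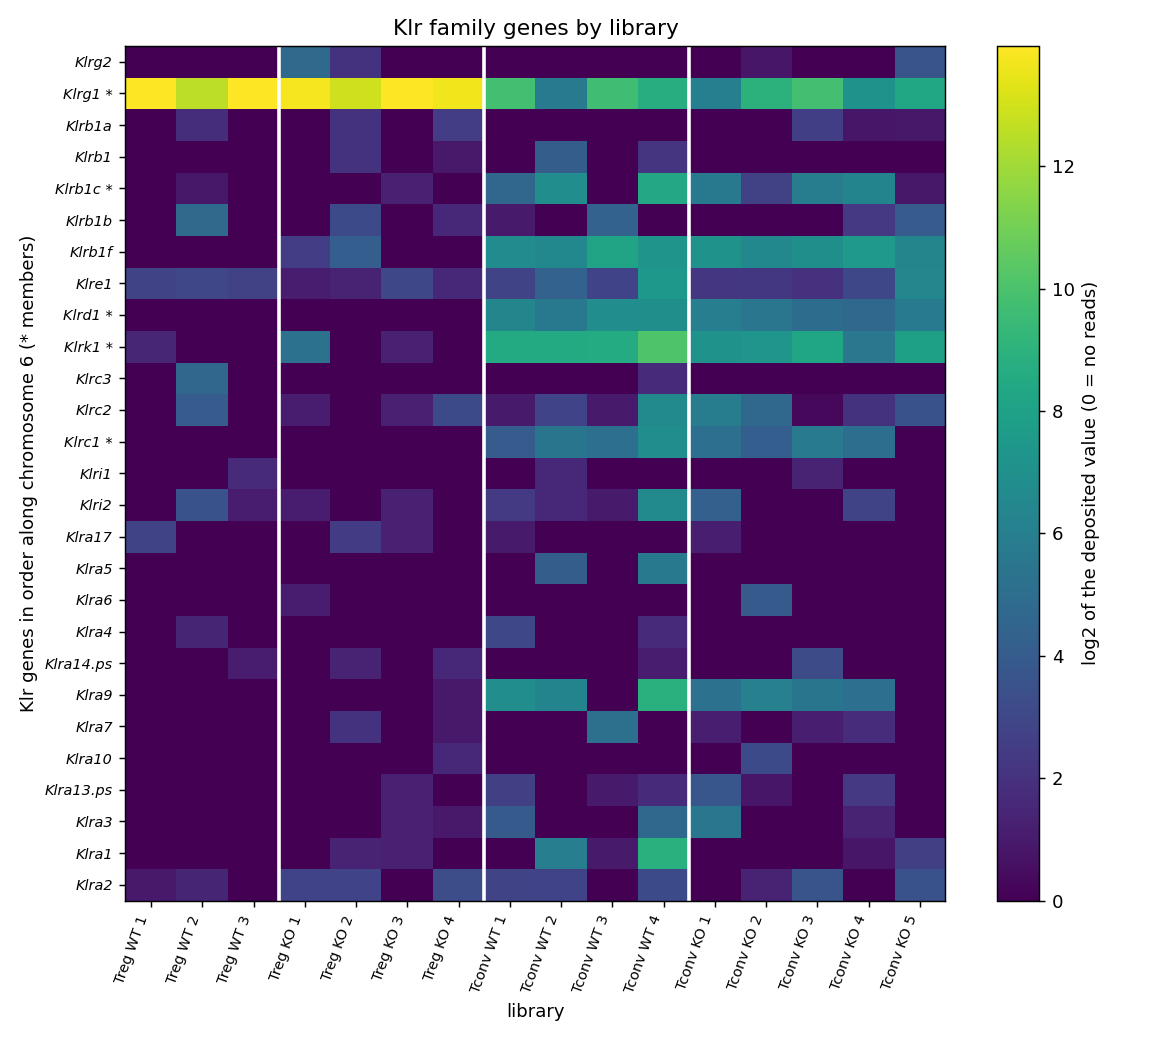
log2 of the deposited value of the 27 Klr genes with a row (rows, in order along chromosome 6, the 5 described genes starred) in the 16 libraries (columns, white lines between groups); 0 means no reads. Klrg1 is the one bright row in Treg, and in Tconv Klrk1, Klrd1, Klrb1f and most of Klrc1 are filled across libraries while Klrb1c, Klra9 and Klra1 are patchy and brightest in Tconv WT 4.

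Over the whole NK gene complex, 44 annotated genes had a row and 20 passed the filter. In WT mice 0 of these were higher and 4 lower in Treg, namely Klrk1, Klrd1, Klrb1f and Klrc1, and in KO mice 0 were higher and 5 lower, the same 4 with Clec2i. Over all genes 2.20% were higher and 1.98% lower in WT, and 4.16% and 2.65% in KO. Klrk1, Klrd1, Klrb1f and Klrc1 passed the filter through Tconv, with at most 1 Treg library at 10 or more, so their direction is partly set by it. The median log2 difference of the 20 genes was -1.14 in WT and -1.26 in KO, beside -0.0037 and 0.04 over all genes, and these all-gene shares and medians stand beside the list counts that follow as well. Clec2i, which encodes the C-type lectin-related ligand Clr-g, was at 51.8 ± 56.8 in Treg KO and 344 ± 92.6 in Tconv KO (difference -3.76, limma adjusted p = 0.00518), and in WT at 32.7 ± 16.5 and 280.2 ± 72.2 (-3.18, adjusted p = 0.0534). Cd69, an activation marker gene of the same cluster named here after its values were seen, was at 3020 or more in all 16 libraries and passed in neither comparison.

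Other ligands were described by a fixed list, of which 14 of 15 genes had a row and 11 passed the filter. In WT mice 0 were called by limma or voom, with 1 at an unadjusted p under 0.05 by each. In KO mice Clec2i was lower, and H2-T23, which encodes Qa-1, the ligand of CD94/NKG2A, and B2m, its light chain, were higher in Treg. H2-T23 was at 7800 ± 1890 in Treg KO and 5121 ± 669 in Tconv KO (0.58, adjusted p = 0.0293), and B2m at 52180 ± 10527 and 38206 ± 2373 (0.43, adjusted p = 0.0459). Both groups overlapped for these 2 genes, and the calls were lost under 9 and 17 of 25 alternatives. The list's median difference was 0.24 in WT and -0.77 in KO.

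The adaptors and signalling proteins behind these receptors had 24 of 25 genes with a row and 23 tested. In WT mice 1 was higher in Treg (Lat2) and 6 were lower, with a median of -0.49, and in KO mice 4 were higher and 7 lower, with a median of -0.44. Lat2 was at 278 ± 88.7 in Treg WT and 16.7 ± 21.4 in Tconv WT (5.11, limma adjusted p = 0.00587), and at 176 ± 50.7 and 3.78 ± 4.94 in KO (5.60, adjusted p = 0.000437); in an unstranded library its exons overlap those of Rfc2. Ptpn6, the phosphatase SHP-1 recruited by inhibitory receptors, was lower in Treg WT than in Tconv WT (190.0 ± 82.3 against 1159 ± 332, -2.67, adjusted p = 0.000246) and in KO stood at 414 ± 209 against 769 ± 223 (-0.97, adjusted p = 0.0927). Ptpn11, the phosphatase SHP-2, was lower in both genotypes (-1.82, adjusted p = 0.00142, and -1.26, adjusted p = 0.00558). The kinase gene Lck was lower in Treg (-0.94 in WT and -0.73 in KO), as was Sh2d1a, the adaptor SAP (-1.91 and -2.36), whose exons overlap those of Tenm1. Fyn, a kinase gene, passed in KO at -1.06 (adjusted p = 0.000174) and stood at -0.40 (adjusted p = 0.253) in WT. Hcst, which encodes DAP10, the adaptor NKG2D needs at the cell surface, was named after its values were seen. It was at 1368 to 2098 in the 7 Treg libraries, where Klrk1 had next to no reads, and at 1749 to 2870 in Tconv, with differences of -0.46 (adjusted p = 0.258) and -0.29 (adjusted p = 0.437).

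Transcription factors known for NK and effector T cells had 16 genes with a row and 15 tested. In WT mice 3 were higher in Treg (Ikzf2, Gata3 and Prdm1) and 3 lower (Tcf7, Eomes and Tox), and in KO mice 3 were higher and 5 lower. Eomes, the T-box factor of NK and memory CD8 T cells, was at 16.4 ± 26.7 in Treg WT against 646 ± 248 in Tconv WT, and at 14.4 ± 16.02 against 1308 ± 807 in KO (-6.73, limma adjusted p = 0.000727, and -7.01, adjusted p = 5.92e-05). Tcf7, the factor TCF-1 of naive and memory T cells, differed by -4.01 and -4.03, and Tox by -1.43 and -1.08, calls that for Tox were lost under 3 and 4 of 25 alternatives. Ikzf2, the Treg factor Helios, was higher by 2.74 and 2.90, and Gata3, whose exons overlap a coding gene, by 1.98 and 2.76. Id2 was higher in KO by 1.45 (adjusted p = 0.0082).

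Among other NK cell receptors, 18 of 19 genes had a row and 16 were tested. In WT mice 0 were higher and 6 lower in Treg, with a median of -1.15, and in KO mice 1 was higher (Tigit) and 5 lower, with a median of -0.66. Over all genes 2.20% were higher and 1.98% lower in WT, and 4.16% and 2.65% in KO, with medians of -0.0037 and 0.04. Slamf6, a homotypic receptor of the SLAM family, was at 158 ± 139 in Treg WT and 2228 ± 569 in Tconv WT (-4.12) and at 292 ± 257 and 1928 ± 532 in KO (-3.01). Cd96, a nectin-like receptor, was lower in Treg (-2.80 in WT and -1.68 in KO), and so was Slamf7 (-3.67 and -4.10). The Slamf7 call in WT (limma adjusted p = 0.0283) was lost under 7 of 25 alternatives, with adjusted p from 0.00514 to 0.229. Voom was among them, as was leaving out Treg WT 3 or Tconv WT 1, 2 or 4. Il12rb2, an IL-12 receptor chain that overlaps Serbp1, was at 109 ± 80.4 and 123 ± 51.1 in Tconv against 1.67 ± 0.590 and 16.8 ± 28.5 in Treg. Cd160, which overlaps Pdzk1, was at 76.8 ± 39.5 and 87.0 ± 48.4 in Tconv and had no reads in Treg WT. In Treg, Il12rb2 was at most 5.82 outside Treg KO 2, at 59.4, and Cd160 had reads only in Treg KO 1, at 43.2. Il12rb2 and Cd160 thus passed the filter through Tconv, and their direction is partly set by it. The same holds for the counts and medians of this list, which include both genes. Crtam passed in WT (-3.34, limma adjusted p = 0.0288), a call that was lost under 8 of 25 alternatives.

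Between KO and WT, limma called 0 genes of the lists of other Klr genes, adaptors and signalling, ligands, transcription factors and other NK cell receptors, in Treg, in Tconv or for the difference of the effects. In Treg the counts at an unadjusted p under 0.05 were 0, 1, 1, 1 and 2 in that order, and in Tconv 0, 2, 1, 1 and 3, of 7, 23, 11, 15 and 16 genes tested. For the difference of the effects they were 0, 4, 0, 0 and 2. Over all genes the shares were 6.22%, 5.45% and 5.22%, and the counts of these short lists are not read as different from them. voom called 0 of each as well, with up to 3 at an unadjusted p under 0.05.

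Several cell types other than CD4 Tconv carry these receptors, and their markers are given here for that reason. Of the fixed NK cell markers 11 of 12 had a row, and their summed value, with the added 1 of each removed, was 217 to 584 in Treg WT, 163 to 354 in Treg KO, 806 to 1934 in Tconv WT and 923 to 3122 in Tconv KO. In Tconv the markers with the highest group means were Eomes and Prf1, which T cells also express, and in Treg Itga2, at 174 ± 73.7 in WT and 139 ± 37.6 in KO. The sum was highest in WT in Tconv WT 4, where Ncr1, the NK receptor NKp46, was at 67.4 and Gzma at 291, both named after their values were seen. Its median was 1290 in Tconv WT and 2643 in Tconv KO, and over all 16 libraries it was highest in Tconv KO 4, the Tconv library lowest in Klrk1. The list holds Klr genes, Klra9, Klre1 and Klri2 among them, so the sum partly restates Klr values. Ncr1 had no reads in the 5 Tconv KO libraries, in the 3 Treg WT libraries or in Tconv WT 2 and 3. CD8 T cell markers (2 of 2 with a row) summed to 6.04 to 128 in Tconv WT, 5.33 to 427 in Tconv KO, 61.8 to 167 in Treg WT and 16.9 to 138 in Treg KO. For gamma delta T and invariant NKT cells 1 of 7 markers had a row, Zbtb16, which was at 93.0 in Tconv WT 1 and at most 21.3 elsewhere. Neutrophil, macrophage and dendritic cell, and B cell markers summed highest in Tconv WT 1, at 14459, 1174 and 119, against at most 197, 235 and 54.2 outside the Tconv WT group. The fixed markers of alpha beta T cells (8 of 9 with a row) summed to 28528 to 46475 in all 16 libraries. The part of any of these cells in the receptor values was not tested.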

How the data were processed

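RNA from sorted cells was made into libraries from 10 ng with the unstranded SMART-seq2 protocol after perfusion, digestion with collagenase and DNase, and flow sorting, and sequenced on an Illumina NextSeq with bcl2fastq2 2.20, per the labels' protocols. Software given without role or order in the submitters' processing notes is kallisto 0.44, CASAVA 1.8, DESeq2 (no version), Partek 6.6 and R 3.3.1, and the build is mm10. The deposited table holds a signal, gene read counts divided by a library's size factor plus 1, as its values show: recovered reads were whole, to within 0.1 of a read, for 100% of the 284611 low values examined (largest distance 0.00483). The sources used here give no annotation or strand setting for the counting. Floors and counting intervals hold for counting error alone, as PCR copies cannot be told apart without molecular identifiers.

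From this table, log2 of the deposited value plus 1 was fitted for the 14319 genes that reached 10 in 3 or more libraries, in a single limma 3.58.1 model with a mean-variance trend over all 16 libraries (R 4.3.3). With few libraries per group, 1 common spread was estimated. Tests are 2-sided, with Benjamini-Hochberg adjustment per comparison and a threshold of 0.05. These log2 differences understate the change of low genes. The 5 genes and all gene lists were chosen with earlier results of these data known. Genes named beside the 5 are Hpgd, Foxp3, the up to 6 of smallest p among those passing in each list, the highest markers, and the 3 nearest genes of each member; others are said to be named after their values were seen, or are listed to complete a count. Lists held other Klr genes, adaptors and signalling, ligands, transcription factors, other NK receptors, the NK gene complex, and markers of 9 cell types (NK, CD8 T, alpha beta T, gamma delta T and NKT, Treg, type 2 innate lymphoid, macrophage and dendritic, B, and neutrophil). Alternatives were other pseudocounts, filters and scaling, a replicate block, only the compared groups, and each library left out. A planned quasi-likelihood count test was replaced by voom on reads recovered from the value steps, chosen after seeing the data.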

Additional observations from a re-analysis of the deposited data

Results flagged for a closer look

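Single libraries stood apart from the rest of their group in 10 of 81 pairs of a named gene and a group of 4 or 5 libraries. The rule flags about 1 in 20 such groups by chance if values are normally distributed. It was applied to untransformed values, some of them at the floor, and pairs with too few reads to be flagged are among the 81. The 10 are therefore not read against that rate. Klrk1 was at 37.2 in Treg KO 1, where the other 3 libraries were at 1 to 2.42. Klrk1 was at 1124.5 in Tconv WT 4, where the others were at 368 to 381. Cd160 was at 43.2 in Treg KO 1, and the other 3 had no reads. Cd160 was looked at here through the list of other NK cell receptors, and it is also the gene nearest to Klrk1 over the same libraries. The shared library is therefore not read as a separate observation.

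Treg KO 2 stood apart for 4 genes. Slamf6 was at 674 there (others 132 to 214), Cd96 at 677 (others 230.0 to 296) and Il12rb2 at 59.4 (others 1 to 5.82), while Id2 was low at 9451 (others 14762 to 15752). This library also had the lowest Klrg1 of Treg KO, at 7921.

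Tconv KO 3, the library with 56.7 M reads, was high for 3 genes: Lat2 at 12.5 (others 1 to 2.56), Gata3 at 5155 (others 1794 to 2117) and Id2 at 10464 (others 3742 to 4625). It had the highest Klrg1 of Tconv KO as well, at 882. The part of depth or of other cells in these values was not tested.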

How the results depend on the processing

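Over the named genes' 56 results, 1318 of 1397 alternatives kept direction and call, 67 lost the call, 2 gained one and 10 reversed. Klrk1 and Klrd1 kept their calls between Treg and Tconv in both genotypes in all alternatives run, and so did Klrg1 in KO. With only the compared groups in the fit, 2 of the 5 genes (Klrk1 and Klrd1) passed in WT mice instead of 4, with Klrg1 at an adjusted p of 0.0521. Klrc1 had no value under a filter at 50. The reversed results were 9 KO minus WT differences and 1 difference of these between Treg and Tconv, and no alternative called any of them. For Klrg1 in Treg the value was -0.00749 with quantile scaling and ran from -0.35 (without Treg WT 2) to 0.35 with 1 library left out, turning below 0 without Treg KO 3 as well. For Klrk1 in Treg it ran from -0.054 (without Treg KO 1) to 1.36. For Klrg1 in Tconv it ran from -1.35 to 0.077 (without Tconv KO 1; also above 0 without Tconv WT 1), and was 0.41 with the 3 libraries high in Il1rl1 left out, which also turned its difference of effects to -0.30. For Klrb1c in Tconv it ran from -2.19 to 0.29 (without Tconv WT 4), and was 0.20 with voom and -3.54 with those 3 libraries left out. The causes were not tested. Without those 3 libraries, 5 of the 5 genes passed in WT and 3 in KO, beside 536 and 1017 of all 14319 genes tested. They are the Tconv libraries highest in Klrg1, so leaving them out can only widen its difference. Tconv WT 1 and 3 were also the Tconv WT libraries lowest in Klrb1c, the gene gained in WT, at 24.8 and 1. Leaving them out widens the WT difference of Klrb1c too, so the 5 of 5 adds no support. Over all genes, calls between Treg and Tconv in WT ran from 161 (only the compared groups) to 664 beside 599, with 288 by voom and 339 without Treg WT 3, and in KO from 652 (without Treg KO 3) to 1140.0 beside 975. The 3 calls in Treg between genotypes became 0 to 17, with 17 without Treg WT 1. Counts of called list genes between Treg and Tconv that moved by over 1.5 times were, in WT, 3 instead of 7 adaptors (only the compared groups), 1 instead of 0 ligands (5 alternatives), 2 instead of 1 other Klr genes (4 alternatives) and 3 instead of 6 other NK receptors (without those 3 libraries). In KO they were 7 instead of 11 adaptors (without Treg KO 3), 1 instead of 3 ligands (7 alternatives), 2 instead of 1 other Klr genes (4 alternatives, the replicate block among them) and 5 instead of 8 transcription factors (without Tconv KO 2 or 4). The planned quasi-likelihood test was not run. The labels tie no number to an animal or batch. Deviations of same-numbered libraries correlated at -0.0370 to 0.0787 over 21 pairs, none above 0.1, so a pairing was not assumed, although 11 of 16 libraries correlated best with their own number, a hint from the data. With the replicate block 4 and 4 of the 5 genes passed between cell types in WT and KO, beside 567 and 816 of all 14319 genes tested. Between genotypes 0, 0 and 0 of the 5 passed, beside 0, 0 and 0 of all genes. Depth limits Treg values of Klrk1, Klrd1, Klrc1 and Klrb1c, at 0 to 31 reads per group.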
